A study of Mus musculus with 24 samples.

Results

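Voltage-gated calcium and sodium channel genes were followed in striatum and cerebellum of mice carrying an expanded huntingtin allele and of wild-type mice. Genes were taken by symbol, as the pore-forming and accessory subunits named Cacna1, Cacna2d, Cacnb and Scn, and 1 probe set stood for each gene, the one with the highest mean over the 24 arrays. The symbols matched 27 genes with 70 probe sets on the array. Of these, 20 genes had a mean log2 value of 4 or more in striatum or in cerebellum, 13 for calcium channel subunits and 7 for sodium channel subunits, out of 10760 genes in the series that passed the same filter. Ranked by the higher of their tissue means, the lowest gene that passed was Cacna1c, with a mean of 7.11 in striatum and 6.30 in cerebellum. The nearest gene that did not pass was Scn9a, the Nav1.7 pore of peripheral neurons, with means of 3.95 in striatum and 3.65 in cerebellum.

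The study compared HdhQ111/HdhQ111 mice, homozygous for a huntingtin allele with a lengthened CAG repeat knocked in at its own locus, with Hdh+/Hdh+ mice, whose 2 wild-type alleles the labels call Q7/Q7. They are called Q111 and wild type from here on. The 4 groups were Q111 striatum, wild-type striatum, Q111 cerebellum and wild-type cerebellum, with 6 arrays each, and no group received a treatment. The labels give 1 age range for all mice, 3 to 10 weeks, and state no sex. Whether a striatum and a cerebellum array share a mouse is also unstated. Replicates are labelled biological with no animal named, so the spread behind each p-value is that among samples and may in part be technical.

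A voltage-gated channel opens when the membrane is depolarised. Its alpha subunit forms the pore and holds the voltage sensor, and accessory subunits set how many channels reach the membrane and how they gate. Sodium channels start and carry the action potential. Calcium channels turn depolarisation into calcium entry, which releases transmitter at terminals (P/Q and N type), reaches signalling to the nucleus (L type), or shapes rhythmic firing near rest (T type). In striatum most neurons are GABAergic projection neurons. Cerebellum holds mainly granule neurons and the much larger Purkinje cells, whose dendrites carry P/Q type current.

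The values are deposited log2-scale GCRMA values, background-corrected microarray intensities on a scale where 1 unit is a 2-fold step. Arrays of a group correlated at 0.983 to 0.993 over the probe sets that passed the filter, and arrays of different tissues at 0.796 to 0.849. Drd1, a dopamine receptor of projection neurons, averaged 11.14 in both striatum groups, against 2.90 in Q111 and 2.95 in wild-type cerebellum. Gabra6, of granule neurons, averaged 2.70 in Q111 and 2.65 in wild-type striatum, against 13.85 and 13.78 in Q111 and wild-type cerebellum. Other listed markers were less specific: the projection neuron marker Penk averaged 13.47 in Q111 and 13.81 in wild-type striatum and also 9.69 in Q111 and 9.75 in wild-type cerebellum. Chat, Slc18a3 and Slc5a7, which define cholinergic interneurons, averaged under 4 in all 4 groups, so their signal was at background. In bulk tissue, fewer cells of a type and less RNA per cell cannot be told apart.

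The regions before the start of 4 genes are shown because they come from pairs whose members differed in opposite directions between the tissues. Scn4b and Scn2b, which encode sodium channel beta subunits, are neighbours on chromosome 9 with 0 protein-coding genes between them, and Scn4b was higher and Scn2b lower in striatum, although 1 dimmer probe set of Scn2b differed the other way. Cacna2d3 and Cacna2d2, which encode calcium channel alpha2delta subunits, differed likewise. Each run is the 250 bases before the RefSeq start (GRCm38.p6), 5′ to 3′ on the gene's strand, and capitals mark GGGCGG on either strand.
Scn4b (chr9:45138374-45138623, plus strand): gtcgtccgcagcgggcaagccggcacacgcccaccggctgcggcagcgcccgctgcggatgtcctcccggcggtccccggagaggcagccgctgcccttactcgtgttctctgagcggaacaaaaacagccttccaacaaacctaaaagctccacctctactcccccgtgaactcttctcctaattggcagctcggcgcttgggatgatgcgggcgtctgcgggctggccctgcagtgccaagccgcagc
Scn2b (chr9:45117626-45117875, plus strand): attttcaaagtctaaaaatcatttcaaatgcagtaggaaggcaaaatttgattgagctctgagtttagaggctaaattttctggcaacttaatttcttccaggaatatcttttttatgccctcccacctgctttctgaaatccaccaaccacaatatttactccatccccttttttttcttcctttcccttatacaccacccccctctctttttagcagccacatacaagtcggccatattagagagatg
Cacna2d3 (chr14:29721865-29722114, minus strand): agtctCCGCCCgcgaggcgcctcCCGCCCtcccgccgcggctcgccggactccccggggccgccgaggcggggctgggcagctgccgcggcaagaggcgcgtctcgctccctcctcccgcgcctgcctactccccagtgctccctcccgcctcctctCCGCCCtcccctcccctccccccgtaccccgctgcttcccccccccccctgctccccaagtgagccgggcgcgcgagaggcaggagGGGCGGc
Cacna2d2 (chr9:107399630-107399879, plus strand): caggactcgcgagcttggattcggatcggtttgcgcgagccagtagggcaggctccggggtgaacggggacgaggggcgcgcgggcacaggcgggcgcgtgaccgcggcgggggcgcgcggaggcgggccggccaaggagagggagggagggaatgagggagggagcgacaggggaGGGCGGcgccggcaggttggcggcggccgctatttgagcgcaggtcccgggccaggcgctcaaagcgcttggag
GGGCGG, the GC box, was found 4 times before Cacna2d3, 1 time before Cacna2d2 and 0 times before Scn4b and Scn2b. Over windows of that length before 32851 RefSeq starts, 32.7% held it. TATAAA, the TATA box, stood in 12.4% of those windows and in none of these 4. The same held for TGACG, part of the cAMP response element, found in 17.8% of all windows. Both were searched on either strand. CpG pairs numbered 23 before Scn4b, 1 before Scn2b, 30 before Cacna2d3 and 34 before Cacna2d2, against a median of 6 over all windows. The motif matches are a description of the letters and no binding was measured.

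The main difference among these genes lay between the tissues. In wild-type mice, 18 of the 20 differed between striatum and cerebellum at an adjusted p under 0.05, against 73.7% of all genes tested. Striatum was higher for 11, against 32.1% of all genes, and lower for 7, against 41.6%. Counted by probe set, 39 of the 44 of these genes were called, against 71.8% of all probe sets. Scn3b, Scn3a and Cacna1h passed the filter through striatum only and so had to be higher there. Of the 17 genes with a mean of 4 or more in both tissues, 8 were called higher and 7 lower in striatum. The shares above are over all genes tested, and no share called is given for all genes at 4 or more in both tissues. Over these 17 the median absolute log2 difference was 1.21, against 0.43 over the 9883 genes at 4 or more in both tissues. Of the 17, 10 differed more than 2-fold, against 21.1% of those 9883 genes, and 4 more than 8-fold, against 2.93%.

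The same comparison in Q111 mice gave 18 calls of 20, against 73.6% of all genes. Striatum was higher for 11, against 32.9% of all genes, and lower for 7, against 40.7%. All 20 differences had the same sign in Q111 as in wild type, with a median gap between the genotypes of 0.07 log2 and a largest gap of 1.12, that of Cacna1g. Scn3b, Scn3a and Cacna1h are among the 20 and the 11, and the filter, taken over both genotypes, favoured their sign. No share of all genes with the same sign in both genotypes is given. In each genotype the arrays of the tissues did not overlap for the 18 called genes, and 55.2% of all genes were free of overlap in wild type.

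**Figure D1:**
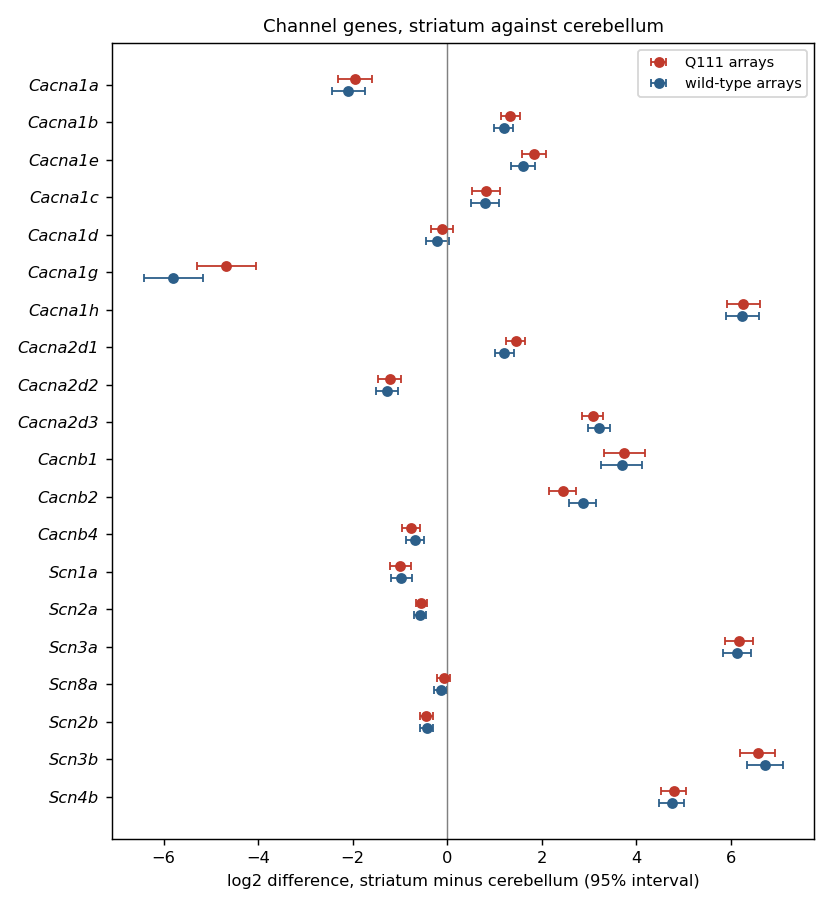
Log2 difference, striatum minus cerebellum, of the 20 channel genes in Q111 arrays (red) and wild-type arrays (blue), with 95% intervals from limma, 6 arrays per group. Both genotypes lie on the same side of 0 for every gene, from Scn3b at 6.57 in Q111 and 6.72 in wild type down to Cacna1g at -4.68 in Q111 and -5.80 in wild type.

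Among the pores of the P/Q, N and R types, Cacna1a was lower in striatum and the other genes were higher. Cacna1a, the P/Q type pore, averaged 6.15 ± 0.24 in wild-type striatum and 8.24 ± 0.25 in wild-type cerebellum (SD, n = 6 each here and below), a log2 difference of -2.09 (SE 0.17, adjusted p = 1.08e-10). Of its other probe sets, 1 differed by -2.12 and the other, under 4 in striatum, by -0.67 with values under 4 set to 4. Cacna1b, the N type pore that works beside it at terminals, averaged 8.79 ± 0.15 in wild-type striatum and 7.59 ± 0.10 in wild-type cerebellum, a difference of 1.20 (SE 0.10, adjusted p = 6.82e-11), and its other probe sets differed by 1.28, 0.82 and 0.69. Cacna1e, the R type pore, averaged 10.25 ± 0.19 in wild-type striatum and 8.64 ± 0.21 in wild-type cerebellum, a difference of 1.61 (SE 0.12, adjusted p = 2.38e-11). No wild-type striatal array overlapped a wild-type cerebellar array for these genes.

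Of the 2 L type pores that passed the filter, 1 was called between tissues. Cacna1c, which encodes Cav1.2, averaged 7.18 ± 0.28 in wild-type striatum and 6.38 ± 0.30 in wild-type cerebellum, a difference of 0.80 (SE 0.14, adjusted p = 2.57e-05), and its other probe set differed by 1.31. Cacna1d, which encodes Cav1.3, a channel that opens at more negative potentials, averaged 6.95 ± 0.21 in wild-type striatum and 7.16 ± 0.10 in wild-type cerebellum. Its difference of -0.21 had a 95% interval of -0.44 to 0.03 (adjusted p = 0.108), and it passed the threshold when wild-type striatum array 3 was left out (-0.27, adjusted p = 0.0361).

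The T type pores, which open near the resting potential, differed in opposite directions. Cacna1h, which encodes Cav3.2, read 8.03 to 9.19 in wild-type striatum with a median of 8.65, against 2.01 to 2.88 in wild-type cerebellum with a median of 2.35. All cerebellar values lay under 4, near the background of the array, so the fold was computed with values under 4 set to 4. By that rule Cacna1h was at least 25.0-fold higher in striatum (measured difference 6.25, SE 0.17, adjusted p = 5.26e-20). Cacna1g, which encodes Cav3.1, the T type pore of Purkinje cells and thalamic relay neurons, read 3.26 to 5.54 in wild-type striatum with a median of 4.13, against 9.48 to 10.36 in wild-type cerebellum with a median of 10.04. It was lower in striatum by a log2 difference of -5.80 (SE 0.30, adjusted p = 1.70e-14), and 45.4-fold lower when values under 4 were set to 4.

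The alpha2delta subunits sit outside the membrane, raise the number of channels at the surface, and in some members bind gabapentin. Cacna2d3 read 11.40 to 12.06 in wild-type striatum with a median of 11.90, against 8.34 to 8.78 in wild-type cerebellum with a median of 8.61. It was 9.29-fold higher in striatum (log2 difference 3.22, SE 0.11, adjusted p = 5.37e-18). Cacna2d1 averaged 9.61 ± 0.18 in wild-type striatum and 8.40 ± 0.11 in wild-type cerebellum, a difference of 1.21 (SE 0.10, adjusted p = 6.69e-11). Cacna2d2, whose loss causes ataxia in ducky mice, averaged 9.69 ± 0.11 in wild-type striatum and 10.96 ± 0.22 in wild-type cerebellum, a difference of -1.27 (SE 0.12, adjusted p = 7.06e-10).

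The beta subunits bind the calcium channel pore inside the cell and bring it to the membrane. Cacnb1 read 7.94 to 8.99 in wild-type striatum with a median of 8.62, against 4.50 to 5.32 in wild-type cerebellum with a median of 4.71, a log2 difference of 3.69 (SE 0.21, adjusted p = 1.14e-13). Its other 3 probe sets differed in the same direction, by 2.92 for 1 set. The other sets lay under 4 in cerebellum, and a floor of 4 gives them lower bounds of 1.38 and 0.55. Cacnb2 read 8.42 to 9.19 in wild-type striatum with a median of 8.82, against 5.63 to 6.09 in wild-type cerebellum with a median of 5.99, a difference of 2.87 (SE 0.14, adjusted p = 3.06e-15). Cacnb4, whose loss causes ataxia and seizures in lethargic mice, averaged 11.23 ± 0.20 in wild-type striatum and 11.92 ± 0.15 in wild-type cerebellum, a difference of -0.68 (SE 0.09, adjusted p = 4.72e-07).

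Among the sodium channel pores, Scn3a stood apart from the genes beside it. Scn3a, which encodes Nav1.3, a pore known mainly from immature neurons, read 8.55 to 9.37 in wild-type striatum with a median of 9.05, against 2.46 to 3.14 in wild-type cerebellum with a median of 2.88. With values under 4 set to 4, it was at least 31.8-fold higher in striatum (measured difference 6.13, SE 0.14, adjusted p = 2.47e-21). Scn2a, which encodes Nav1.2 and is the neighbour of Scn3a on chromosome 2 with 0 protein-coding genes between them, averaged 12.39 ± 0.06 in wild-type striatum and 12.96 ± 0.06 in wild-type cerebellum. It was lower in striatum by a log2 difference of -0.57 (SE 0.06, adjusted p = 6.40e-09). Scn1a, which encodes Nav1.1, on the same chromosome with 3 protein-coding genes between it and Scn2a, averaged 10.03 ± 0.25 in wild-type striatum and 11.01 ± 0.13 in wild-type cerebellum, a difference of -0.97 (SE 0.11, adjusted p = 1.72e-08). The remaining genes of that cluster, Scn9a and Scn7a, were below the filter in both tissues. Scn8a, which encodes Nav1.6, the main pore of the mature axon initial segment, averaged 9.74 ± 0.10 in wild-type striatum and 9.88 ± 0.11 in wild-type cerebellum, a difference of -0.14 with a 95% interval of -0.28 to 0.003 (adjusted p = 0.0735). Leaving out wild-type striatum array 2 (-0.17, adjusted p = 0.0430) or wild-type cerebellum array 2 (-0.17, adjusted p = 0.0322) moved Scn8a past the threshold. With all arrays, limma called the second brightest probe set of Scn8a lower in wild-type striatum (-0.16, SE 0.07, adjusted p = 0.043). The dimmer probe sets of Scn8a differed by 0.09 and 0.07 and were not called.

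The sodium channel beta subunits are single-pass proteins with an immunoglobulin fold that modulate gating and adhesion. Scn3b read 9.60 to 10.19 in wild-type striatum with a median of 9.77, against 2.72 to 3.71 in wild-type cerebellum with a median of 2.94. With values under 4 set to 4, it was at least 57.4-fold higher in striatum (measured difference 6.72, SE 0.18, adjusted p = 4.30e-20), and its other probe set by at least 4.86-fold. Scn4b, whose intracellular tail is known to support resurgent sodium current, read 11.21 to 11.81 in wild-type striatum with a median of 11.49, against 6.62 to 6.87 in wild-type cerebellum with a median of 6.71. It was 27.0-fold higher in striatum (difference 4.75, SE 0.13, adjusted p = 3.69e-20). Scn2b averaged 11.85 ± 0.12 in wild-type striatum and 12.28 ± 0.10 in wild-type cerebellum, a difference of -0.43 (SE 0.07, adjusted p = 4.10e-06). A dimmer probe set of Scn2b differed the other way, by 1.23 (SE 0.34, adjusted p = 0.00274), so the direction for Scn2b depended on the probe set. Of the 12 genes with several probe sets past the filter, 10 had 1 sign of the wild-type tissue difference in all of them, and the exceptions were Scn2b and Scn8a.

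**Figure D2:**
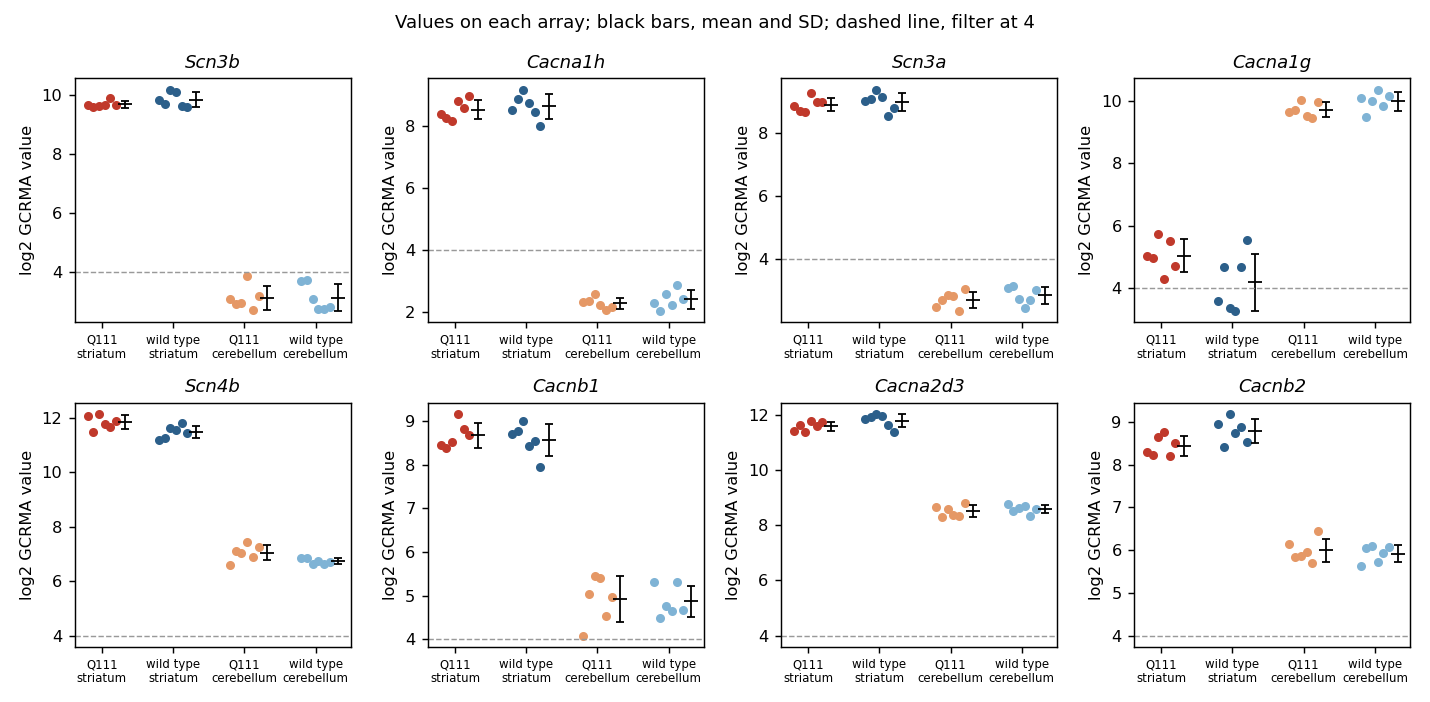
Log2 GCRMA values on each array for the 8 channel genes with the largest tissue differences in wild type, in Q111 striatum, wild-type striatum, Q111 cerebellum and wild-type cerebellum from left to right, with black bars for mean and SD and a dashed line at the filter of 4. Scn3b, Cacna1h and Scn3a lie under 4 on every cerebellar array, and Cacna1g in striatum is spread from 3.26 to 5.73.

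The means of some marker lists differed between the tissues as well. The mean over 15 striatal projection neuron markers ranged from 10.83 to 11.78 in wild-type striatum and from 5.13 to 5.29 in wild-type cerebellum. That over 10 granule neuron markers ranged from 4.05 to 4.54 in wild-type striatum and from 11.04 to 11.49 in wild-type cerebellum, and that over 9 Purkinje cell markers from 7.19 to 7.74 in wild-type striatum and from 12.03 to 12.46 in wild-type cerebellum. Of the 9 Purkinje cell markers, 7 were called lower and 2 higher in wild-type striatum, against 41.6% and 32.1% of all genes. Those called higher were Gad1, at 13.35 in wild-type striatum and 12.98 in wild-type cerebellum, and Pcp4, at 14.59 and 13.97. How much of each channel gene's difference went with the cell types present was not tested.

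The comparison of Q111 with wild type asks whether the expanded allele changed these genes in either tissue. In striatum limma called 0 of the 20 genes, against 2.78% of all genes tested. In cerebellum it called 0 of 20, against 0.446%, and for the interaction, the genotype difference in striatum minus that in cerebellum, 0 of 20, against 0.0836%. With backgrounds this low, a count of 0 among 20 genes is close to the share among genes in general. At an unadjusted p under 0.05 there were 3 genes in striatum, 1 in cerebellum and 2 for the interaction, against 19.2%, 14.4% and 10.2% of all genes. By the probe set that stood for each gene, the 6 Q111 arrays overlapped the 6 wild-type arrays for all 20 genes in both tissues. No share over all genes is given for this overlap, so it is not read as particular to the channel genes.

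The intervals bound how large a difference could be for the probe set that stood for each gene. Another probe set of the same gene could lie outside, as 1 of Scn8a did in striatum, at -0.65 (95% interval -0.925 to -0.373). The 95% interval lay within ±0.5 log2 for 14 of 20 genes in striatum, 18 in cerebellum and 12 for the interaction. The same interval lay within ±1 for 19 in striatum, 20 in cerebellum and 19 for the interaction, with Cacna1g as the exception in striatum and for the interaction. The median absolute difference was 0.11 in striatum and 0.08 in cerebellum over the 20 genes, against 0.10 and 0.09 over all genes. The narrowest intervals were those of Scn2a, at -0.02 in striatum (-0.14 to 0.10) and -0.04 in cerebellum (-0.17 to 0.08). The other Scn2a probe sets past the filter differed in striatum by 0.20 (0.02 to 0.38) and by -0.21 (-0.52 to 0.10), neither called.

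**Figure D3:**
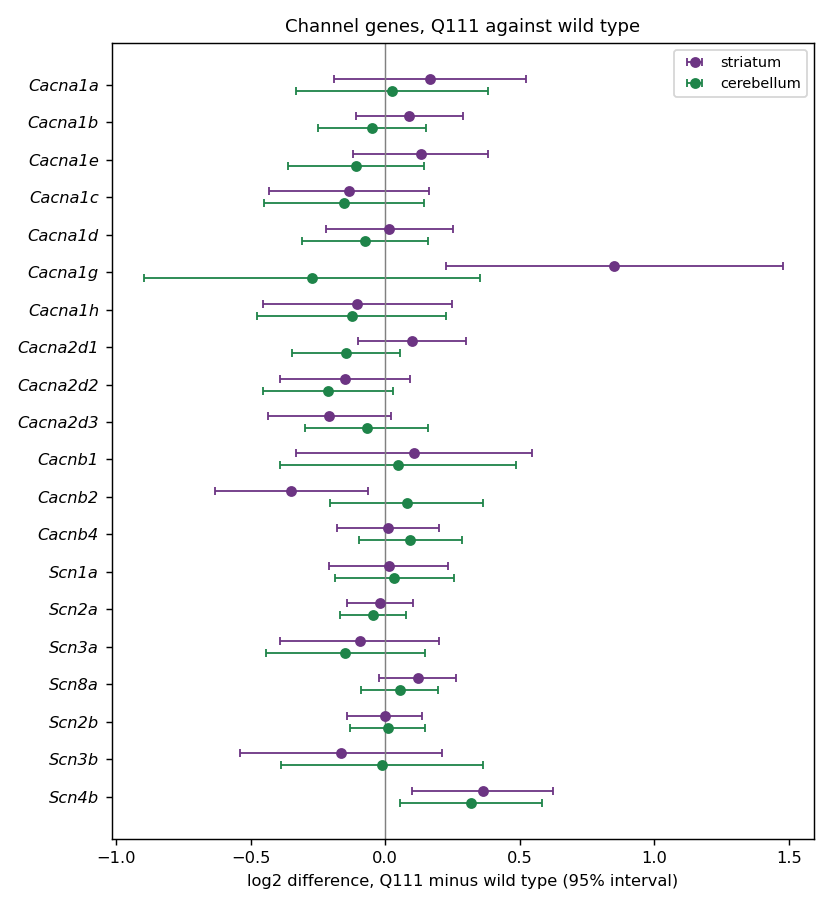
Log2 difference, Q111 minus wild type, of the 20 channel genes in striatum (purple) and cerebellum (green), with 95% intervals from limma, 6 arrays per group. The intervals are unadjusted; Scn4b in both tissues and Cacna1g and Cacnb2 in striatum lie off 0, and none of them passed the threshold after adjustment.

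Scn4b had the smallest p of the 20 in both tissues. In striatum it read 12.09, 11.50, 12.16, 11.78, 11.68 and 11.89 on Q111 arrays 1 to 6, against 11.21, 11.28, 11.64, 11.55, 11.81 and 11.43 on wild-type arrays 1 to 6. All 6 Q111 arrays lay above the wild-type mean, the groups overlapped, and the log2 difference was 0.36 (SE 0.13, 95% interval 0.10 to 0.62, adjusted p = 0.117). On cerebellum arrays it averaged 7.05 ± 0.29 for Q111 and 6.73 ± 0.11 for wild type, with 5 of 6 Q111 arrays above the wild-type mean and a difference of 0.32 (SE 0.13, adjusted p = 0.258). The interaction was 0.04 (95% interval -0.33 to 0.41).

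Cacna1g had the largest difference and the widest spread. It read 5.02, 4.98, 5.73, 4.29, 5.50 and 4.70 on Q111 striatum arrays 1 to 6, against 3.59, 4.67, 3.37, 3.26, 4.68 and 5.54 on wild-type striatum arrays 1 to 6. All 6 Q111 arrays lay above the wild-type mean, but wild-type array 6 was higher than 5 of them. The log2 difference was 0.85 (SE 0.30, 95% interval 0.23 to 1.48, adjusted p = 0.121), and with values under 4 set to 4 the estimate was 1.47-fold. Without wild-type striatum array 6 it was 1.12 (adjusted p = 0.0327), which was the only call that leaving out 1 array added among the 20 genes in the genotype comparisons or the interaction. In cerebellum the difference was -0.27 (SE 0.30, adjusted p = 0.738), and the interaction was 1.12 (SE 0.43, adjusted p = 0.346).

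Cacna1g is known from thalamic relay neurons, and thalamus markers varied on the same arrays. The mean over the 9 of 12 listed markers that passed the filter was 7.20, 7.37, 7.90, 6.89, 7.13 and 5.84 on Q111 striatum arrays 1 to 6, against 6.54, 6.81, 6.18, 6.93, 7.55 and 8.27 on wild-type striatum arrays 1 to 6. The array with the highest Cacna1g value in each group, Q111 array 3 and wild-type array 6, also had the highest marker mean. Q111 array 6, with the lowest marker mean, had a Cacna1g value of 4.70, above the lowest of its group. The group means of the markers were 7.05 ± 0.69 in Q111 and 7.05 ± 0.75 in wild type. The listed markers Gbx2, Lef1 and Lhx9 averaged under 4 in all 4 groups. The list was not particular to thalamus in these data, since its mean was higher in cerebellum, at 8.62 in Q111 and 8.71 in wild type. Of the 9 markers, 5 were called lower in wild-type striatum than in wild-type cerebellum, against 41.6% of all genes. Only 1 was called higher, against 32.1%. The part of the thalamus markers in the Cacna1g values was not tested.

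**Figure D4:**
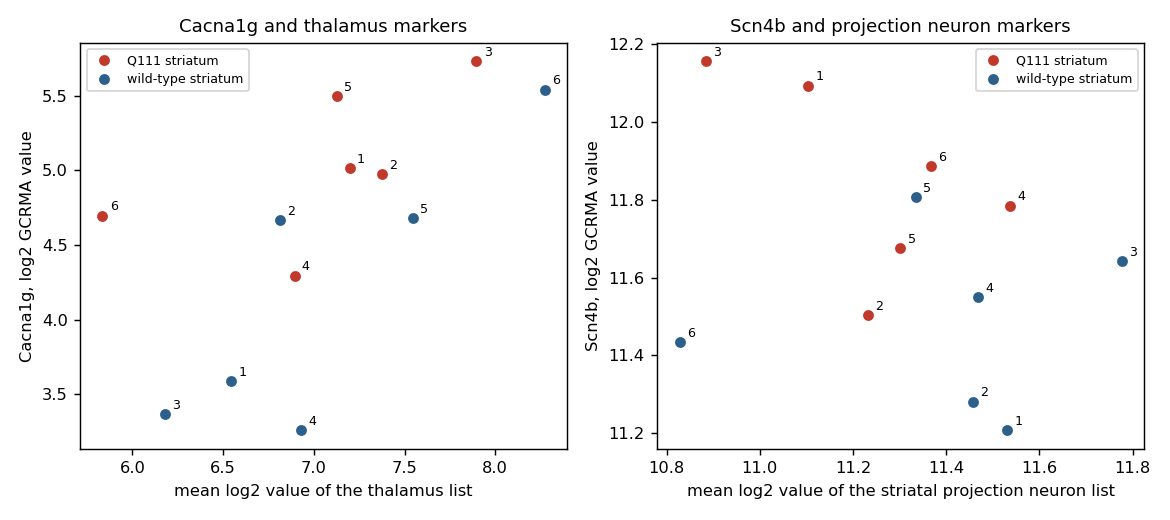
Left, log2 value of Cacna1g against the mean log2 value of 9 thalamus markers, and right, log2 value of Scn4b against the mean of 15 projection neuron markers, on each Q111 striatum array (red) and wild-type striatum array (blue), with replicate numbers beside the points. Cacna1g is highest where the thalamus mean is highest in each group, and Scn4b reached 12.16 on Q111 array 3, which has the lowest projection neuron mean of its group.

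Beside Scn4b, the mean over 15 projection neuron markers was 11.24 ± 0.23 in Q111 striatum and 11.40 ± 0.32 in wild-type striatum. The mean over 10 of 12 cerebral cortex neuron markers was 7.85 ± 0.38 in Q111 striatum, with a range of 7.17 to 8.16, and 7.40 ± 0.33 in wild-type striatum, with a range of 6.90 to 7.74. Limma called 2 of these 10 cortex markers higher in Q111 striatum, against 2.78% of all genes called there in either direction, and Emx1, of the same list, averaged under 4 in all 4 groups. The part of either marker list in the Scn4b values was not tested.

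Of the other genes with the smallest p in striatum, Cacnb2 averaged 8.44 ± 0.23 on Q111 arrays and 8.79 ± 0.28 on wild-type arrays. All 6 Q111 arrays lay under the wild-type mean, with a log2 difference of -0.35 (SE 0.14, adjusted p = 0.159) and an interaction of -0.43 (SE 0.19, adjusted p = 0.466). Its other probe set differed by -0.18 in striatum (adjusted p = 0.609), with an interaction of 0.05 (adjusted p = 0.968). Cacna2d3 averaged 11.61 ± 0.17 in Q111 striatum and 11.81 ± 0.24 in wild-type striatum, a difference of -0.21 (SE 0.11, adjusted p = 0.323) that was 0.05 among arrays numbered 4 to 6. In cerebellum, Cacna2d2 averaged 10.75 ± 0.21 on Q111 arrays and 10.96 ± 0.22 on wild-type arrays, a difference of -0.21 (SE 0.12, adjusted p = 0.427), with 6 of 6 Q111 arrays under the wild-type mean. Cacna2d1 differed there by -0.15 (SE 0.10, adjusted p = 0.522) and Cacna1c by -0.15 (SE 0.14, adjusted p = 0.672), each with 5 of 6 Q111 arrays under the wild-type mean. For the remaining genes, by the probe set that stood for each, the differences lay between -0.16 (Scn3b) and 0.17 (Cacna1a) in striatum. Other probe sets of these genes lay outside that range. Examples are 1 of Scn2b at 0.28 (SE 0.10, adjusted p = 0.118) and 1 of Cacnb1 at 0.36 (SE 0.21, adjusted p = 0.384). A probe set of Cacna1c lay on the other side, at -0.26 (SE 0.21, adjusted p = 0.543). None of these was called.

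The probe sets of Scn8a did not move together in striatum. Over all 44 probe sets of the 20 genes, limma called 1 in striatum, or 2.27% of them, against 2.87% of all probe sets tested, and it belonged to Scn8a. It was singled out after its values were seen and is the dimmest of the 4 that passed the filter for this gene. It read 7.36, 7.21, 7.46, 7.51, 7.32 and 7.37 on Q111 striatum arrays 1 to 6, against 7.995, 7.67, 7.99, 8.14, 8.31 and 8.03 on wild-type striatum arrays 1 to 6. The groups did not overlap, and the value fell by 0.65 on the log2 scale (SE 0.13, adjusted p = 0.0123). In cerebellum it averaged 7.75 ± 0.33 on Q111 arrays and 7.95 ± 0.26 on wild-type arrays, a difference of -0.20 (adjusted p = 0.520). The interaction was -0.45 (adjusted p = 0.422), so it was not shown that the genotype difference itself differed between the tissues. The brightest probe set of Scn8a differed by 0.12 in striatum (SE 0.07, adjusted p = 0.354). The others differed by 0.23 (SE 0.07, adjusted p = 0.0751) and by -0.17 (SE 0.10, adjusted p = 0.354). The probe sets were not placed on transcripts here, and what sets the dimmest one apart was not tested.

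**Figure D5:**
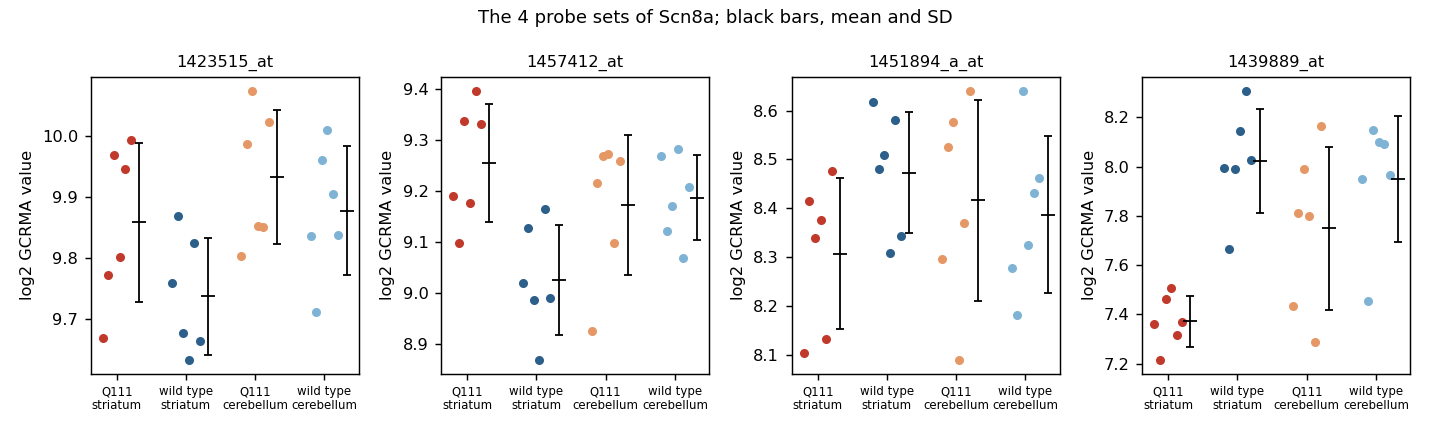
Log2 GCRMA values on each array for the 4 Scn8a probe sets that passed the filter, in Q111 striatum, wild-type striatum, Q111 cerebellum and wild-type cerebellum from left to right, with black bars for mean and SD. The dimmest probe set, at the right, lies between 7.21 and 7.51 in Q111 striatum and between 7.67 and 8.31 in wild-type striatum, and the groups overlap in the other 3 probe sets.

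The genes differed in how much they varied between arrays of 1 group. The SD within groups was 0.56 for Cacna1g, above that of 99.3% of all genes, and 0.39 for Cacnb1, and it was 0.09 for Scn2a, above that of 5.88% of all genes. Its median was 0.21 over the 20 genes and 0.17 over all genes. Between replicate numbers 1 to 3 and 4 to 6, the sign of the genotype difference was the same for 9 of 20 genes in striatum, 11 in cerebellum and 5 for the interaction. No share over all genes is given for these counts. The means of the number sets also lay closer together than the spread within groups would give, so the sets may not be independent.

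The 7 genes below the filter were Cacna1f, Cacna1s, Cacna2d4, Scn7a, Scn9a, Scn10a and Scn11a, known from retina, skeletal muscle, glia or peripheral neurons. Their tissue means lay between 2.07 (Cacna1f in striatum) and 3.95 (Scn9a in striatum), and their highest single value was 4.10, of Scn9a. At this signal they were not told apart from background, which does not show that their RNA was absent.

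Genes whose products act with these channels were read from 4 lists. Their counts stand against the shares of all genes called, which were 32.1% higher and 41.6% lower in wild-type striatum, and between genotypes 2.78% in striatum, 0.446% in cerebellum and 0.0836% for the interaction. The filter favoured the direction of any listed gene with a mean under 4 in 1 tissue. In wild-type cerebellum, 16 of 17 sodium channel partners and 15 of 16 calcium channel partners averaged 4 or more. So did 4 of 5 Cacng genes and 15 of 16 genes of calcium stores and extrusion. In wild-type striatum, 15 of 16 calcium channel partners and 4 of 5 Cacng genes did, and all of the other lists. Differences of listed genes are given with no floor at 4. Of 17 sodium channel partners that passed the filter, of 20 listed, 7 were called higher and 7 called lower in wild-type striatum than in wild-type cerebellum, with a median log2 difference of 0.015 against -0.07 over all genes. Fgf13, an intracellular factor that binds the sodium channel tail, differed by 2.18, the desmosome gene Pkp2 by 2.14 and Ptprz1, a receptor phosphatase of glia, by -0.997. Their adjusted p ranged from 1.13e-17 for Fgf13 to 3.59e-08 for Pkp2. Limma called 0 of the 17 between genotypes in either tissue or for the interaction. The smallest p belonged to Nedd4l, a ubiquitin ligase of sodium channels, in striatum (0.22, adjusted p = 0.318), to Fgf11 in cerebellum (-0.37, adjusted p = 0.159) and to Cntn1 for the interaction (0.24, adjusted p = 0.488).

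Of 16 calcium channel partners that passed the filter, of 24 listed, 10 were called higher and 6 called lower in wild-type striatum, against 32.1% and 41.6% of all genes, with a median difference of 0.67. Akap5, an anchor for kinases and calcineurin at L type channels, differed by 4.97 (adjusted p = 1.31e-19), Rimbp2, which ties calcium channels to the release site, by 4.75 (adjusted p = 4.83e-15), and Camk2a, a calcium-dependent kinase, by 4.52 (adjusted p = 1.22e-18). Between genotypes 1 of the 16 was called in striatum, against 2.78% of all genes, and 1 for the interaction, against 0.0836%. Stac2, whose protein binds L type channels and slows their inactivation, rose in Q111 striatum by 0.67 log2 (SE 0.15, adjusted p = 0.0221) and differed by -0.10 in cerebellum (adjusted p = 0.821), with an interaction of 0.77 (adjusted p = 0.147) that missed the threshold. It lost its call without wild-type striatum array 4 (adjusted p = 0.0560) or Q111 striatum array 6 (adjusted p = 0.0564), with the replicate number as a block (adjusted p = 0.0648), with the striatum arrays fitted alone (adjusted p = 0.0603) and within each number set. Cabp1, a calmodulin relative that acts on P/Q and L type channels, passed for the interaction at 1.22 (SE 0.24, adjusted p = 0.0478), at the edge of the threshold. That call was lost when any 1 of 16 of the 24 arrays was left out (adjusted p up to 0.105), with quantile normalisation (adjusted p = 0.0540), median centring (adjusted p = 0.0731), no filter (adjusted p = 0.0792), the number set in the model (adjusted p = 0.0893) or the replicate number as a block (adjusted p = 0.169), and within each number set. Cabp1 differed by 0.60 in Q111 striatum (adjusted p = 0.0548) and by -0.62 in Q111 cerebellum (adjusted p = 0.0987), neither past the threshold. In cerebellum 0 of 16 were called, against 0.446% of all genes. On the same striatum arrays the mean over 10 cerebral cortex neuron markers was 7.85 ± 0.38 in Q111 and 7.40 ± 0.33 in wild type. The part of these markers in the Stac2 and Cabp1 values was not tested.

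Of the 5 Cacng genes that passed, of 8 listed, 2 were called higher and 3 called lower in wild-type striatum, against 32.1% and 41.6% of all genes. They are relatives of the muscle calcium channel gamma subunit, several of which serve mainly as partners of AMPA receptors in brain. Cacng3 differed by 5.80 (adjusted p = 5.48e-20), Cacng4 by 2.89 (adjusted p = 5.11e-11) and Cacng7 by -1.42 (adjusted p = 3.71e-06). Between genotypes 0 of 5 were called in either tissue or for the interaction, with the smallest p for Cacng2 in striatum (0.30, adjusted p = 0.184), Cacng3 in cerebellum (0.25, adjusted p = 0.490) and Cacng7 for the interaction (0.72, adjusted p = 0.434).

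Of 16 genes of calcium stores and extrusion that passed, of 19 listed, 9 were called higher and 5 called lower in wild-type striatum, against 32.1% and 41.6% of all genes, with a median difference of 0.28. Atp2a3, a calcium pump of the endoplasmic reticulum, differed by -5.52 (adjusted p = 1.31e-17), Ryr3, a ryanodine receptor, by 3.12 (adjusted p = 4.55e-15) and Atp2b1, a calcium pump of the plasma membrane, by 2.39 (adjusted p = 1.86e-15). Between genotypes 0 of 16 were called in either tissue or for the interaction. Ryr1 had the smallest p in striatum (-0.33, adjusted p = 0.296), and Stim1, the store sensor, had it in cerebellum (-0.38, adjusted p = 0.149) and for the interaction (0.47, adjusted p = 0.311).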

How the data were processed

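The authors deposited 1 table of log2-scale GCRMA values from 24 Affymetrix arrays, per the submitters' processing notes, which give no version. GCRMA corrects background, equalises array distributions and combines the probes of a set into 1 value. Differences that involve values near background are less certain. The log base is not stated, and the range of -0.77 to 16.33 was read as log2. Array medians lay between 3.38 and 3.51. The number of arrays limits the precision.

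After 64 control probe sets were left out, 20738 of 45037 probe sets averaged 4 or more in striatum or cerebellum. Limma 3.58.1 in R 4.3.3 fitted a mean per group to all 24 arrays (20 residual degrees of freedom). Adjusted p is Benjamini-Hochberg over the 20738 probe sets, with a threshold of 0.05. Gene names came from the platform annotation (2016), and 27 of 27 members matched RefSeq by Entrez identifier. Named genes were those past the threshold between genotypes, otherwise the 4 with the smallest p, the 8 with the largest wild-type tissue differences, and up to 3 per partner list. Members and lists were chosen with earlier results of these data known. The fit was tested on simulated data.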

Additional observations from a re-analysis of the deposited data

Results flagged for a closer look

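Scn3b on Q111 striatum array 5 read 9.89, against 9.58 to 9.67 on the other 5 Q111 striatum arrays. Its gap to the nearest of them was 0.701 of the group's whole range, above Dixon's critical ratio for 6 values. Among 80 groups of 6 values (20 genes in 4 groups) it was the single one past that ratio, where chance would give about 4 at 1 in 20.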

How the results depend on the processing

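The counts of genes called between genotypes and for the interaction were 0 under quantile normalisation, median centring, the filters, array weights, a trended robust prior, values under 4 set to 4, the number set in the model, only the groups compared (not run for the interaction) and each set of replicate numbers alone. Those between tissues were 18 in each genotype, or 20 with no filter. The count with no filter is out of all 27 genes on the array and takes in genes below the filter. Counting all probe sets of the 20 genes instead gave 1 in striatum between genotypes, 39 between tissues in wild type and 39 in Q111. Leaving out each array gave 0 to 1 genotype calls in striatum. The called Scn8a probe set kept its direction and lost its call within replicate numbers 1 to 3 (-0.54, adjusted p = 0.183) and 4 to 6 (-0.76, adjusted p = 0.0605). Cacna1c in cerebellum turned to 0.078 in numbers 1 to 3, Cacna2d3 in striatum to 0.047 in numbers 4 to 6, and Scn2b between tissues to 1.23 with its next probe set. The cause was not tested.

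With the replicate number as a block, 0 genes were called between genotypes in either tissue or for the interaction and 18 between tissues in each genotype, and of the calls tested it ended only those of the partner genes Stac2 and Cabp1. Arrays that share a number correlated in their deviations at -0.42 to 0.12 between genotypes and at -0.055 to 0.18 between tissues. No pairing of groups was above 0.1 in every pair, and whether both tissues share mice is unstated, so the numbers were not used as pairs. Alternatives for Stac2 and Cabp1 were run after their calls were seen: both kept their sign in all, at 0.43 to 0.91 for Stac2 and 1.04 to 1.41 for Cabp1, and both lost the call within each number set. The means of numbers 1 to 3 and 4 to 6 within a tissue differed with an SD over probe sets of 0.0534 in striatum and 0.0512 in cerebellum, against 0.146 and 0.139 from the spread within groups. No label records a step that equalises them. Values near 4 are limited by background.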
